A study of Mus musculus with 4 samples.

Results

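Transforming growth factor beta (TGF-beta) ligands are secreted in a latent form, held in the matrix by latent TGF-beta binding proteins, and once released they bind a type II receptor that recruits and activates a type I receptor. The type I receptor phosphorylates SMAD proteins, which enter the nucleus and change transcription, and co-receptors such as betaglycan and endoglin alter which ligand is bound. In the embryonic heart and pharyngeal arches the pathway is known for its part in forming vessels, endocardial cushions and the smooth muscle of the arch arteries. Described here are 10 genes of the pathway, chosen by symbol among the 32285 genes counted in each library. They are the ligand genes *Tgfb1*, *Tgfb2* and *Tgfb3*, the latent binding protein gene *Ltbp1*, the receptor genes *Tgfbr1*, *Tgfbr2* and *Acvrl1*, the co-receptor genes *Tgfbr3* and *Eng*, and the TGF-beta induced matrix gene *Tgfbi*. All 10 were found once each in the files.

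RNA was measured by droplet-based 3′ single-cell sequencing in GFP-positive cells sorted from the pharyngeal region and heart of mouse embryos at E9.5. The cHet embryos were Tbx1Cre/+; Kmt2d F/+; GFP F/+ and the cKO embryos were Tbx1Cre/+; Kmt2d F/F; GFP F/+, so both groups carried the Cre allele at *Tbx1*, which leaves 1 functional copy of that gene, and both carried the GFP reporter. Cre from the *Tbx1* locus marks and recombines the *Tbx1* lineage, so the values are of that lineage and not of the whole tissue. The strain was labelled as outbred SwissWebster. There were 2 libraries per genotype. Each library of replicate 1 (Rep1) came from a pool of 4 embryos and each of replicate 2 (Rep2) from a pool of 3, and the replicates were made with different droplet kits (Next GEM and GEM-X). By the authors' somite counts, the cKO pool of Rep2 was level with or ahead of its cHet pool. In Rep1 the cKO range lay within that of cHet. The part of stage in the values was not tested. The cells carry no mark of their embryo, so the library was the replicate and n = 2 per genotype. Kmt2d, the deleted gene, is a histone methyltransferase. Counts from the 3′ end of its transcript do not check a deletion of internal exons, and no value of it is given. By RT-qPCR on sorted cells at E9.5, the authors found *Kmt2d* RNA significantly depleted in cKO, measured against Tbx1Cre/+ controls.

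The barcodes of 1 library stood apart. In cHet Rep1, 83.2% of 37093 barcodes held fewer than 3000 genes, against 24.97% to 28.4% in the other libraries. The cells kept held 59.7% of its unique molecular identifiers (UMIs, each marking 1 captured transcript), against 86.0% to 91.8%. The authors report far fewer cells than barcodes for this library, while their cell numbers for the other libraries equal the barcodes. These shares thus compare unlike sets of barcodes. The median of its kept cells was 19210 UMIs, against 17240 to 22980 in the other libraries. The members that passed the test between genotypes are also given in each replicate alone and without this library. The libraries held 179454146 to 234726019 UMIs, and 5901, 6283, 9354 and 11909 cells were kept in the cHet and cKO libraries of Rep1 and the cHet and cKO libraries of Rep2. Every list of 4 values below has this order. Libraries of Rep1 shared 87 barcodes, 12 of them between cells kept, and libraries of Rep2 shared 71, 41 of them between cells kept. Cells were grouped without the 10 genes or other pathway genes, and 11 groups were named from markers: endothelium, cardiac muscle, anterior second heart field (aSHF), posterior second heart field (pSHF), multilineage primed progenitors (MLPs), branchiomeric muscle progenitors (BrM), mesenchyme, ectoderm, endoderm, otic vesicle and neuronal cells. Each name means cells like that type. A further 616 cells were left unnamed. Levels are in CPM, the UMIs of a gene divided by all UMIs of that library and cell type and scaled as counts per 1e6. Because only the 3′ end was counted, levels were compared between cell types and libraries for 1 gene and not between genes.

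Since *Eng*, *Tgfbr2* and *Tgfb1* were highest in the endothelium and *Tgfb2* was the ligand gene that passed the test between genotypes, the 250 bases before their annotated starts are shown. These come from a set of windows at RefSeq starts on GRCm38.p6, to which 7 of the 10 genes were matched. *Tgfb3*, *Tgfbr3* and *Acvrl1* had no matched window, though *Tgfbr3* and *Acvrl1* were also highest in the endothelium. The sequences are written 5′ to 3′ on the strand of the gene. Capitals mark AGGAAG or its reverse complement in the first 3, a form of the GGAA core that ETS factors, known regulators of endothelial genes, bind. In *Tgfb2* they mark TATAAA, the letters of a TATA box. *Eng* lies at chr2:32646345-32646594 (plus strand), *Tgfbr2* at chr9:116175364-116175613 (minus strand), *Tgfb1* at chr7:25686752-25687001 (plus strand) and *Tgfb2* at chr1:186705990-186706239 (minus strand).
Eng: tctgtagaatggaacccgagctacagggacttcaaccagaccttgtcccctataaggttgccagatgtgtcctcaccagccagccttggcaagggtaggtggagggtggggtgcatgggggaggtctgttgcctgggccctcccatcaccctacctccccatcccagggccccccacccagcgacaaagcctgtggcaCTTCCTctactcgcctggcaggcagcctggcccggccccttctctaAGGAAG
Tgfbr2: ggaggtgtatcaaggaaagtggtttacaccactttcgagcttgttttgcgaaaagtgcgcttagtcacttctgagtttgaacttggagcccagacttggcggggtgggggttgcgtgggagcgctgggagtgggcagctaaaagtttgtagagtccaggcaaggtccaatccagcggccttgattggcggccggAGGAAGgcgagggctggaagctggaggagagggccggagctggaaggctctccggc
Tgfb1: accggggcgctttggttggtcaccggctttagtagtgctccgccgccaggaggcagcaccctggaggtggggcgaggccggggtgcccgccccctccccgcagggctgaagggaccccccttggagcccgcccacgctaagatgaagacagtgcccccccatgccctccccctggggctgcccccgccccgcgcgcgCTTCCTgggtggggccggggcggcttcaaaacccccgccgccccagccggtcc
Tgfb2: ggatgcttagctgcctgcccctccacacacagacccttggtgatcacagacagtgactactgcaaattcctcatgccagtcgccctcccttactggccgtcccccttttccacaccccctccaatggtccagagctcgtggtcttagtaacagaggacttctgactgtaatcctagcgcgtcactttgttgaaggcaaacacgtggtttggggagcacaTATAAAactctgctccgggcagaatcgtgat

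AGGAAG began 52 and 6 bases before the start of *Eng*, 56 bases before that of *Tgfbr2* and 53 bases before that of *Tgfb1*. On either strand it was found in 29.5% of all 32851 such windows, and it was also in a *Tgfbr1* and a *Tgfbi* window of the 9 windows matched to the 10 genes. TATAAA began 31 bases before the start of *Tgfb2*, was in none of the other matched windows and was in 12.4% of all windows. Of the 9 motifs searched, CAGACA, the letters of a SMAD-binding repeat, was found in the *Tgfb2* window, in 1 window each of *Tgfbr1* and *Ltbp1*, and in 17.1% of all windows. The others were GGAA itself, the longer ETS forms CCGGAA and also ACAGGAA, the KLF motif CACCC, the SP1 motif GGGCGG and the AP-1 motif TGACTCA. Neither of these longer ETS forms was found in the windows of *Eng*, *Tgfbr2* and *Tgfb1*. Among the matched windows, the first was in 1 *Ltbp1* window only and the second in none. They were in 12.0% and 7.20% of all windows, and the core itself was in 93.4%. The core lies within each longer ETS form, so matches of the core and of a longer form overlap. The motifs were chosen by hand. A match describes the letters only.

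The 10 genes fell into different patterns across cell types, and 2 of the pairs of gene and cell type tested passed between genotypes. *Tgfb1*, *Tgfbr2*, *Acvrl1*, *Tgfbr3* and *Eng* were highest in the endothelium in all 4 libraries. *Tgfb2* and *Ltbp1* were highest in cardiac muscle and high in the second heart field. *Tgfbi* was highest in mesenchyme and *Tgfbr1* varied little between types. The means of *Tgfb3* ran from 0.525 CPM in the endothelium to 7.98 CPM in cardiac muscle. Of 110 pairs of gene and cell type, 88 passed the filter on low counts and were tested, and 2 passed at an adjusted p under 0.05 in edgeR. These were *Tgfb2*, higher in cKO otic vesicle, and *Acvrl1*, lower in cKO mesenchyme. Of the 88, 9 (10.2%) had an unadjusted p under 0.05, beside 6.06% of all 145372 tests of a gene in a type, and 64 (72.7%) had a log2 fold change within 0.25 of 0, beside 79.3% of all tests. The share of all tests called was 0.393%.

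**Figure D1:**
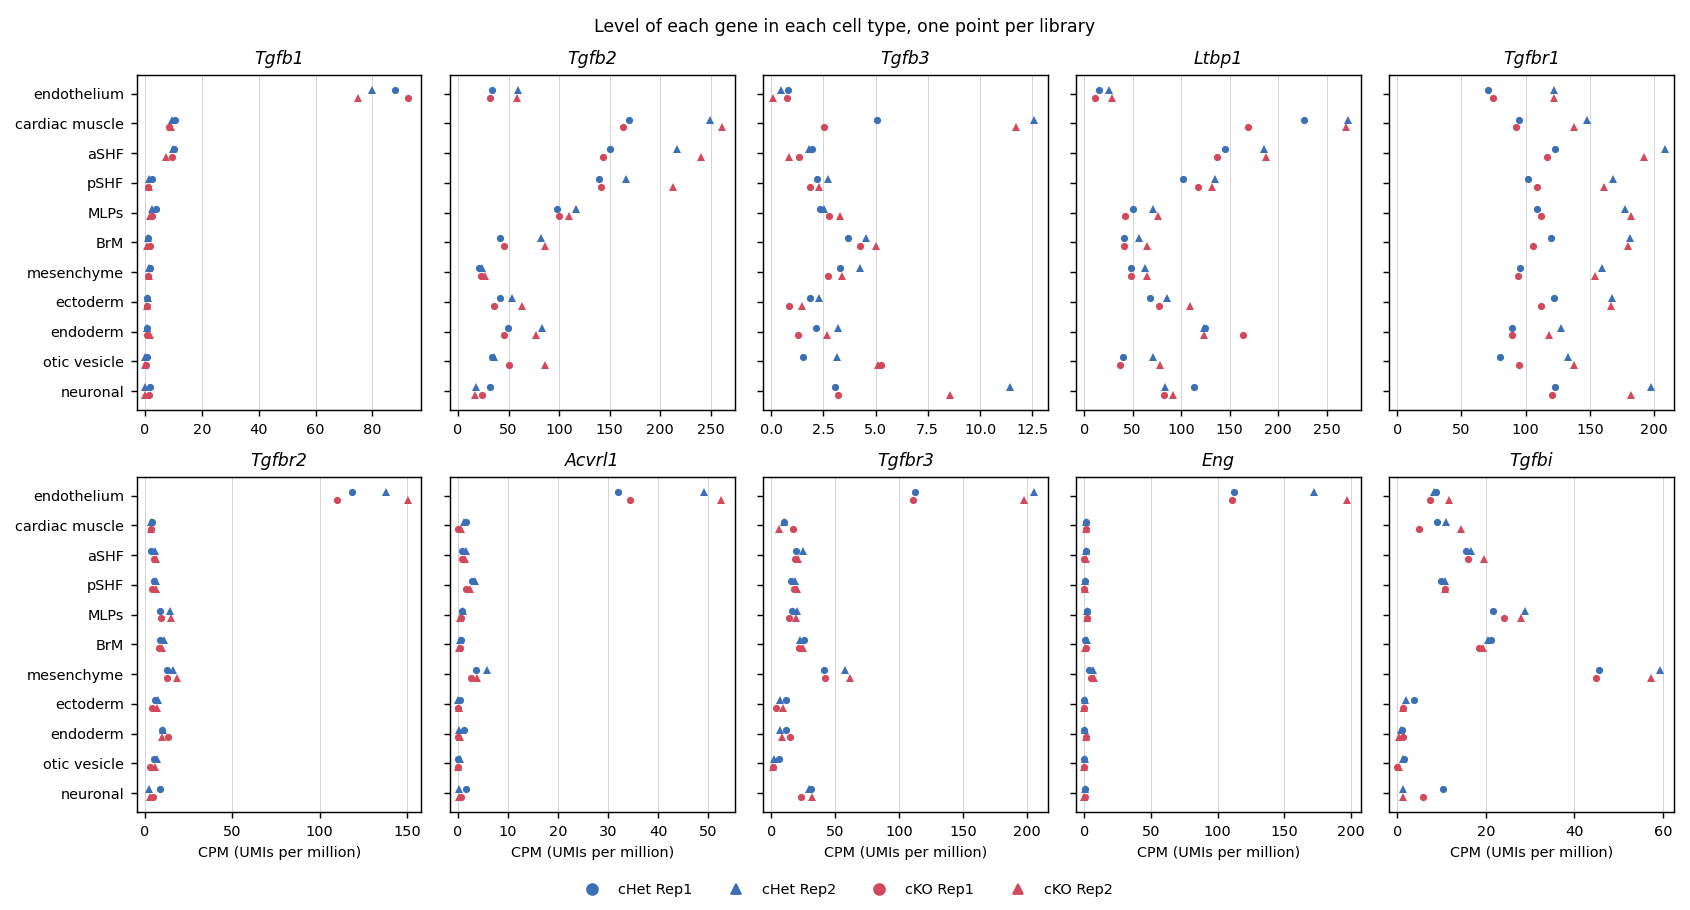
Level of each of the 10 genes in 11 cell types, in CPM on a linear axis that differs between panels, with 1 point per library (blue cHet, red cKO, circles Rep1, triangles Rep2). The 4 points of *Eng* in the endothelium lie between 111 and 197 CPM and those of every other type at or below 7.29 CPM.

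*Tgfb2* (chr1:186622792-186705989, minus strand) encodes a ligand known for its roles in the heart and the inner ear. The *Gm29491* gene overlaps *Tgfb2* on the other strand. The level of *Tgfb2* in cardiac muscle was 169, 163, 249 and 261 CPM in the 4 libraries. In the aSHF it was 149.9, 144, 217 and 240.2 CPM, and in the pSHF 139, 141, 166 and 213 CPM. Cardiac muscle lay above aSHF, aSHF above pSHF and pSHF above MLPs in each of the 4 libraries, with means of 211 ± 51.9, 188 ± 48.2, 164.5 ± 34.2 and 106 ± 8.92 CPM (SD, n = 4 libraries of both genotypes). The endoderm (63.9 ± 18.96 CPM) and BrM (63.8 ± 23.3 CPM) did not differ beyond their spread, nor did ectoderm (48.4 ± 12.1 CPM) and endothelium (45.4 ± 15.3 CPM). Mesenchyme (23.4 ± 2.59 CPM) and neuronal cells (22.5 ± 6.91 CPM) were lowest and overlapped.

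In the otic vesicle, the epithelium that forms the inner ear, *Tgfb2* stood at 33.2 CPM in cHet Rep1, 50.6 CPM in cKO Rep1, 35.1 CPM in cHet Rep2 and 85.9 CPM in cKO Rep2. Both cKO libraries lay above both cHet libraries, and the values rested on 66, 125, 112 and 452 UMIs from 85, 92, 132 and 273 cells. The log2 fold change was 1.02 ± 0.16 (SE, n = 2 libraries per genotype, edgeR, adjusted p = 0.011). It was 0.59 in Rep1 and 1.26 in Rep2. The SE comes from the edgeR test statistic, with spread taken largely from other genes, and in DESeq2 it was 0.32. Of the 5 members tested in this type 1 was called, and of all genes tested there 0.253% were called, while the libraries did not overlap between genotypes in 12.3%. With 1 library left out the log2 fold change was 0.76 to 1.149, and 1.12 without cHet Rep1, and the call was lost. Without 1 library the fit has no block and 1 genotype has 1 library, whose spread is assumed to be that of the others. The loss of a call there thus says nothing of a single gene, and the estimate also holds the difference between replicates. The call was also lost without the replicate block (0.96) and in DESeq2 (0.97), each with an adjusted p of 1.00.

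The labelled type was checked beside this value. The 8 otic vesicle markers summed to 670, 657, 877 and 982 CPM, with no marker at 0. The 8 mesenchyme markers summed to 118, 14.2, 33.8 and 27.8 CPM and the 8 endothelial markers to 29.1, 1.22, 4.39 and 4.94 CPM in the same cells, both highest in cHet Rep1. Their part in the result was not tested.

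The genotype difference of *Tgfb2* in the otic vesicle was compared with that in each other cell type by a type by genotype term in edgeR. It was larger in the otic vesicle than in each of the 10 others. The difference was smallest against pSHF, at 0.82 on the log2 scale, and neuronal cells minus otic vesicle gave -1.21. The adjusted p ranged from 6.15e-10 against MLPs to 0.0143 against BrM. The 10 comparisons share the otic vesicle libraries and are not independent. Each fit held few sums and a library block, so the spread was taken largely from other genes. No other setting was run for these terms. The call within the otic vesicle was itself lost without the replicate block and in DESeq2. The share of all genes called in these comparisons was 0.0732% against aSHF, 0.218% against endoderm, 0.356% against BrM, 0.358% against cardiac muscle and 0.511% against ectoderm. It was 0.521% against endothelium, 0.681% against MLPs, 0.728% against mesenchyme, 0.982% against pSHF and 1.02% against neuronal cells. Outside the otic vesicle, the log2 fold change of *Tgfb2* lay between -0.27 in neuronal cells and 0.20 in pSHF. In mesenchyme it was 0.16 ± 0.06 (adjusted p = 0.27) and in pSHF 0.20 ± 0.08 (adjusted p = 0.70), and neither passed. The pSHF value was -0.001 in Rep1 and 0.35 in Rep2, and 0.05 to 0.30 without 1 library.

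**Figure D2:**
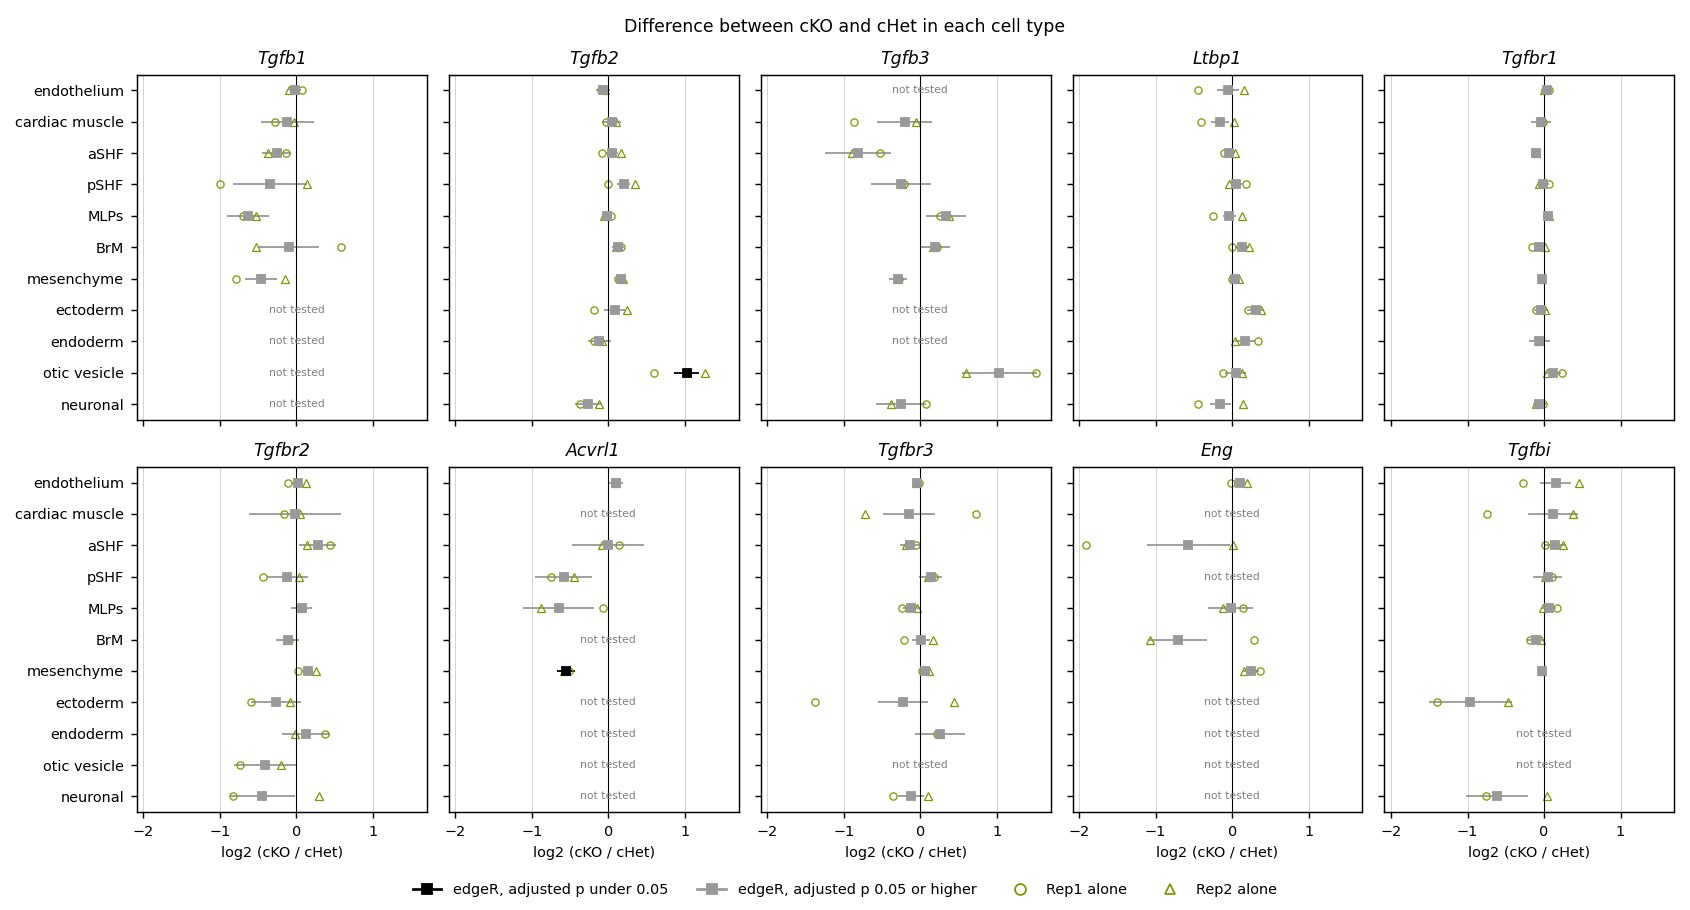
Log2 ratio of cKO to cHet for each gene in each cell type. Squares and bars give the edgeR estimate and its SE (n = 2 libraries per genotype), black where the adjusted p was under 0.05, open circles and triangles give Rep1 and Rep2 alone, and *Tgfb2* in the otic vesicle (1.02) and *Acvrl1* in mesenchyme (-0.55) are the black squares. The SE comes from the test statistic, with spread taken largely from other genes.

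*Tgfb1* (chr7:25687002-25705077, plus strand), the ligand best known from blood, vessels and immune cells, was at 88.0, 92.6, 79.9 and 75.0 CPM in the endothelium. The mean there, 83.9 ± 7.89 CPM (SD, n = 4), was 8.90 times that of the next type. Cardiac muscle (9.43 ± 0.885 CPM) and aSHF (9.18 ± 1.23 CPM) came next and did not differ beyond their spread, followed by MLPs (2.58 ± 0.894 CPM). The remaining 7 types held a mean of at most 1.59 CPM. Between genotypes the log2 fold change in the endothelium was -0.01 ± 0.08. The estimate was below 0 in all 7 types tested and none passed the test, and in endothelium, pSHF and BrM the replicates had opposite signs. The lowest were -0.64 ± 0.28 in MLPs (adjusted p = 0.75, -0.69 in Rep1 and -0.53 in Rep2) and -0.46 ± 0.21 in mesenchyme (adjusted p = 0.44, -0.79 in Rep1 and -0.15 in Rep2). Without 1 library they ran from -1.09 to -0.13 in MLPs and from -0.86 to -0.10 in mesenchyme, and both were nearest 0 without cHet Rep1. In the sums over all cells it was -0.33 ± 0.12 (adjusted p = 0.78), -0.50 in Rep1 and -0.16 in Rep2. Endothelial cells made up 6.76%, 4.39%, 5.56% and 5.55% of the cells kept, and the part of this share in the value was not tested.

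*Tgfb3* (chr12:86056745-86079041, minus strand), a ligand known for its part in closing the palate, had the fewest UMIs of the ligands over all cells in each library. Cardiac muscle held 5.06, 2.51, 12.6 and 11.7 CPM and neuronal cells 3.07, 3.19, 11.4 and 8.57 CPM, and in both types the Rep2 libraries were the higher ones. The other types had means from 0.525 CPM in the endothelium to 4.38 CPM in BrM. In the otic vesicle the values were 1.51, 5.27, 3.13 and 5.13 CPM, from 3, 13, 10 and 27 UMIs, with a log2 fold change of 1.04 ± 0.50 (adjusted p = 0.89) that did not pass. In mesenchyme, with 186 to 446 UMIs per library, it was -0.29 ± 0.12 (adjusted p = 0.39). The *Ttll5* and *Gm48008* genes overlap *Tgfb3* on the other strand.

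*Ltbp1* (chr17:75005568-75392512, plus strand) encodes a protein that binds latent TGF-beta and stores it in the matrix. Cardiac muscle was highest at 227, 168.5, 272 and 269.6 CPM, above the aSHF (164 ± 26.8 CPM) in each library. Endoderm (134 ± 19.7 CPM) and pSHF (122 ± 15.2 CPM) were within their spread of each other, and the endothelium was lowest (20.2 ± 8.44 CPM). Endoderm held 124, 163, 124 and 124 CPM, and liver markers summed to 9.20, 200, 1.36 and 11.4 CPM in its cells. The part of these markers in the level was not tested. The log2 fold changes of *Ltbp1* lay between -0.16 in cardiac muscle and 0.31 in ectoderm. The ectoderm value, from 67.6, 77.3, 85.0 and 109 CPM, was 0.31 ± 0.11 with an adjusted p of 0.73. In each of Rep1 and Rep2 the cKO library was the higher one there, but the groups overlapped.

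*Tgfbr1* (chr4:47353222-47414931, plus strand), the type I receptor of TGF-beta, was found at similar levels in all types. Its means ran from 97.4 ± 28.5 CPM in the endothelium to 159.8 ± 47.0 CPM in the aSHF. The replicates differed as well. Over all cells, Rep2 lay 1.63 times above Rep1 in cHet and 1.63 times above it in cKO, and the kit, the embryo pools and the processing of a replicate cannot be told apart. All log2 fold changes lay between -0.10 and 0.12, with SEs of 0.04 to 0.14, and no p was under 0.05.

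*Tgfbr2* (chr9:116084293-116175360, minus strand), the type II receptor, stood at 119, 109.8, 138 and 151 CPM in the endothelium, 8.74 times the mean of mesenchyme, the next type. Mesenchyme (14.8 ± 2.89 CPM) lay above MLPs (11.6 ± 3.21 CPM) in each library, while MLPs, endoderm and BrM overlapped. Cardiac muscle, in which the ligand *Tgfb2* was highest, held 3.40 ± 0.338 CPM, the lowest mean of the 11 types for this gene. Between genotypes the estimates ran from -0.45 in neuronal cells to 0.28 in aSHF, and in the endothelium it was 0.02 ± 0.07. None passed. In mesenchyme it was 0.15 ± 0.07 (adjusted p = 0.49).

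*Acvrl1* (chr15:101128522-101145336, plus strand) encodes a type I receptor of endothelial cells that binds the ligands of *Gdf2* and *Bmp10*. The *Gm16031* gene overlaps *Acvrl1* on the other strand. The level of *Acvrl1* in the endothelium was 31.9, 34.3, 49.1 and 52.6 CPM, 10.8 times the mean of mesenchyme. Mesenchyme (3.88 ± 1.31 CPM) and pSHF (2.60 ± 0.747 CPM) followed in every library, and the other types had means of at most 1.10 CPM. Of the 11 types, 5 were tested.

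In mesenchyme *Acvrl1* was at 3.60 CPM in cHet Rep1, 2.53 CPM in cKO Rep1, 5.68 CPM in cHet Rep2 and 3.72 CPM in cKO Rep2, from 203, 238, 598 and 389 UMIs. Within each replicate the cKO library was lower, but cKO Rep2 lay above cHet Rep1, so the groups overlapped. The log2 fold change was -0.55 ± 0.12 (SE, n = 2 per genotype, edgeR, adjusted p = 0.026), -0.51 in Rep1 and -0.58 in Rep2. Of the 10 members 1 was called in mesenchyme, and of all genes tested there 1.62% were called. An unadjusted p under 0.05 was found in 5 of the 10 members, beside 10.7% of all genes there. Of these *Tgfb1*, *Tgfb3* and *Acvrl1* were lower in cKO, and *Tgfb2* and *Eng* were higher. With 1 library left out the *Acvrl1* estimates were -0.71 to -0.38, and -0.71 without cHet Rep1. The call of *Acvrl1* was lost without the replicate block (-0.55, adjusted p = 1.00) and in DESeq2 (-0.55 ± 0.22, adjusted p = 0.64). It was also lost with cells of at least 4000 genes (-0.52, adjusted p = 0.12) and with doublets kept (-0.53, adjusted p = 0.052).

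The 8 endothelial markers summed to 9.76, 7.74, 15.4 and 12.5 CPM in the same mesenchymal cells, lower in cKO in both replicates, with no marker at 0. In barcodes under 1000 UMIs, which are not among the cells kept, *Acvrl1* was at 4.42 CPM in cHet Rep1, 2.71 CPM in cHet Rep2 and 0.740 CPM in cKO Rep2. In cKO Rep1 it was at 0 among 417938 UMIs, which allows up to 7.18 CPM. The part of either in the result was not tested. Of the 10 mesenchymal clusters, 5 had a lower *Acvrl1* level in cKO in both replicates and 1 a higher level in both. Some members not called there had like counts, with 6 lower and 1 higher for *Tgfb3* and 0 lower and 7 higher for *Tgfbr2*. *Tgfbr1* had 4 lower and 3 higher. In the endothelium itself the log2 fold change of *Acvrl1* was 0.10 ± 0.10. Its genotype difference was 0.66 lower in mesenchyme than in endothelium on the log2 scale (edgeR type by genotype term, adjusted p = 4.6e-04), a comparison in which 0.825% of genes were called. The effect in mesenchyme minus that in aSHF was -0.57 and did not pass (edgeR type by genotype term, adjusted p = 0.97). No other setting was run for these terms. The estimates in pSHF (-0.59 ± 0.37) and MLPs (-0.65 ± 0.46), near that in mesenchyme, did not pass.

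*Tgfbr3* (chr5:107106570-107289629, minus strand) encodes betaglycan, a co-receptor that presents ligand, above all that of *Tgfb2*, to the type II receptor. It stood at 112, 111, 206 and 198 CPM in the endothelium and at 41.7, 42.3, 58.0 and 61.6 CPM in mesenchyme, in each of which the Rep2 libraries were higher. Mesenchyme lay above neuronal cells (29.1 ± 3.73 CPM) in each library, and the otic vesicle was lowest (2.97 ± 2.08 CPM). The estimates ran from -0.23 in ectoderm to 0.26 in endoderm and no p was under 0.05 in the 10 types tested.

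*Eng* (chr2:32646595-32682669, plus strand) encodes endoglin, an endothelial co-receptor that works with the *Acvrl1* receptor. It was at 112, 111, 172 and 197 CPM in the endothelium, 25.8 times the mean of mesenchyme (5.73 ± 1.52 CPM), the largest such ratio of the 10 genes. After each cell was thinned to 5000 UMIs, 39.3%, 42.8%, 57.1% and 57.9% of endothelial cells held an *Eng* UMI (84.5%, 88.0%, 92.9% and 89.9% before thinning). In the otic vesicle it was 0 of 582 cells over the 4 libraries together, which allows up to 0.515% of cells with an *Eng* UMI at this depth and sets no limit on cells expressing it, and before thinning 0.758% in cHet Rep2 and 0% in the other libraries. The limit covers counting error only. The median depth before thinning was 16580 to 27276 UMIs per endothelial cell and 18473 to 26599 UMIs per otic cell. Between genotypes the endothelium gave 0.10 ± 0.07 and mesenchyme 0.25 ± 0.10 (adjusted p = 0.36), and neither passed. The mesenchyme value was 0.37 in Rep1 and 0.16 in Rep2. Without cHet Rep1 it was 0.05, and it was up to 0.49 without another library. The *Fpgs* gene lies over part of *Eng* on the other strand.

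*Tgfbi* (chr13:56609523-56639562, plus strand), a matrix protein gene known to rise with TGF-beta, was highest in mesenchyme at 45.6, 44.8, 59.4 and 57.2 CPM. MLPs (25.7 ± 3.42 CPM), BrM (19.9 ± 1.21 CPM) and aSHF (17.0 ± 1.81 CPM) followed, and endoderm (0.931 ± 0.342 CPM) and otic vesicle (0.785 ± 0.712 CPM) were lowest. In mesenchyme the log2 fold change was -0.03 ± 0.05, with 2570 to 6256 UMIs per library. The estimates elsewhere ran from -0.96 ± 0.55 in ectoderm to 0.15 ± 0.20 in the endothelium, and none passed.

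Within the endothelium, 3 parts were separated by markers. They were 270 cells of 2 subclusters with *Etv2*, a gene of early endothelial progenitors, among their leading genes (the *Etv2* part), 164 arterial-like cells, which also held endocardial markers, and 1422 other cells. The arterial-like part held 4 cells of cKO Rep1, so that library is left out of its values. *Tgfb2* was at 137, 131, 187 and 185 CPM in the *Etv2* part and at 116 CPM in cHet Rep1, 159 CPM in cHet Rep2 and 89.3 CPM in cKO Rep2 in the arterial-like part. In the other endothelial cells it was at 9.20, 14.7, 20.2 and 23.8 CPM. *Ltbp1* was at 52.4, 48.7, 66.2 and 86.5 CPM in the *Etv2* part, 41.2, 107 and 99.1 CPM in the 3 arterial-like samples and 1.23 to 6.82 CPM in the other cells. Of the cells of the *Etv2* part, 176 lay in a subcluster whose leading genes also included *Ttn*, *Tnni1* and *Des*, genes of muscle, so the part is given no cell type name. The 8 cardiac muscle markers summed to 183, 117, 278 and 211 CPM in the *Etv2* part, to 63.0, 91.3 and 89.3 CPM in the 3 arterial-like samples and to 9.76, 7.98, 18.3 and 13.7 CPM in the other cells, and their part in the levels of *Tgfb2* and *Ltbp1* was not tested. The 8 endothelial markers summed to 1481, 1360, 1909 and 1950 CPM in the *Etv2* part, below the other cells in each library (2544 to 4126 CPM). *Eng*, like those markers and unlike *Tgfb2* and *Ltbp1*, was lower in the *Etv2* part, with 44.2 to 85.7 CPM there and 117.5 to 223 CPM in the other cells. *Acvrl1* was likewise lower in the *Etv2* part (21.0 to 29.7 CPM) than in the other cells (33.6 to 54.6 CPM). These are descriptions without a test, since the parts come from clusters of the same cells.

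Within mesenchyme, *Tgfbi* ran from 18.5 ± 5.72 CPM in the cluster led by *Pax3*, *Tcf15* and *Fap* to 81.1 ± 11.3 CPM in the cluster led by *Vcam1*, *Cyp26a1* and *Irx1*. The 338 cells of the cluster led by *Tagln*, *Myl9* and *Acta2*, genes of contractile cells, stood apart in the ligand genes *Tgfb1* and *Tgfb2*. There *Tgfb1* was at 16.0, 11.9, 12.8 and 19.3 CPM, against means of at most 2.18 CPM in the other 9 clusters. *Tgfb2* was at 77.5, 47.5, 90.5 and 83.4 CPM in it, against means of at most 31.5 CPM. *Ltbp1* (106 ± 31.4 CPM) was high there too, and highest in a cluster led by *Kcnmb2*, *Cyp26a1* and *Pappa* (114 ± 17.7 CPM).

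**Figure D3:**
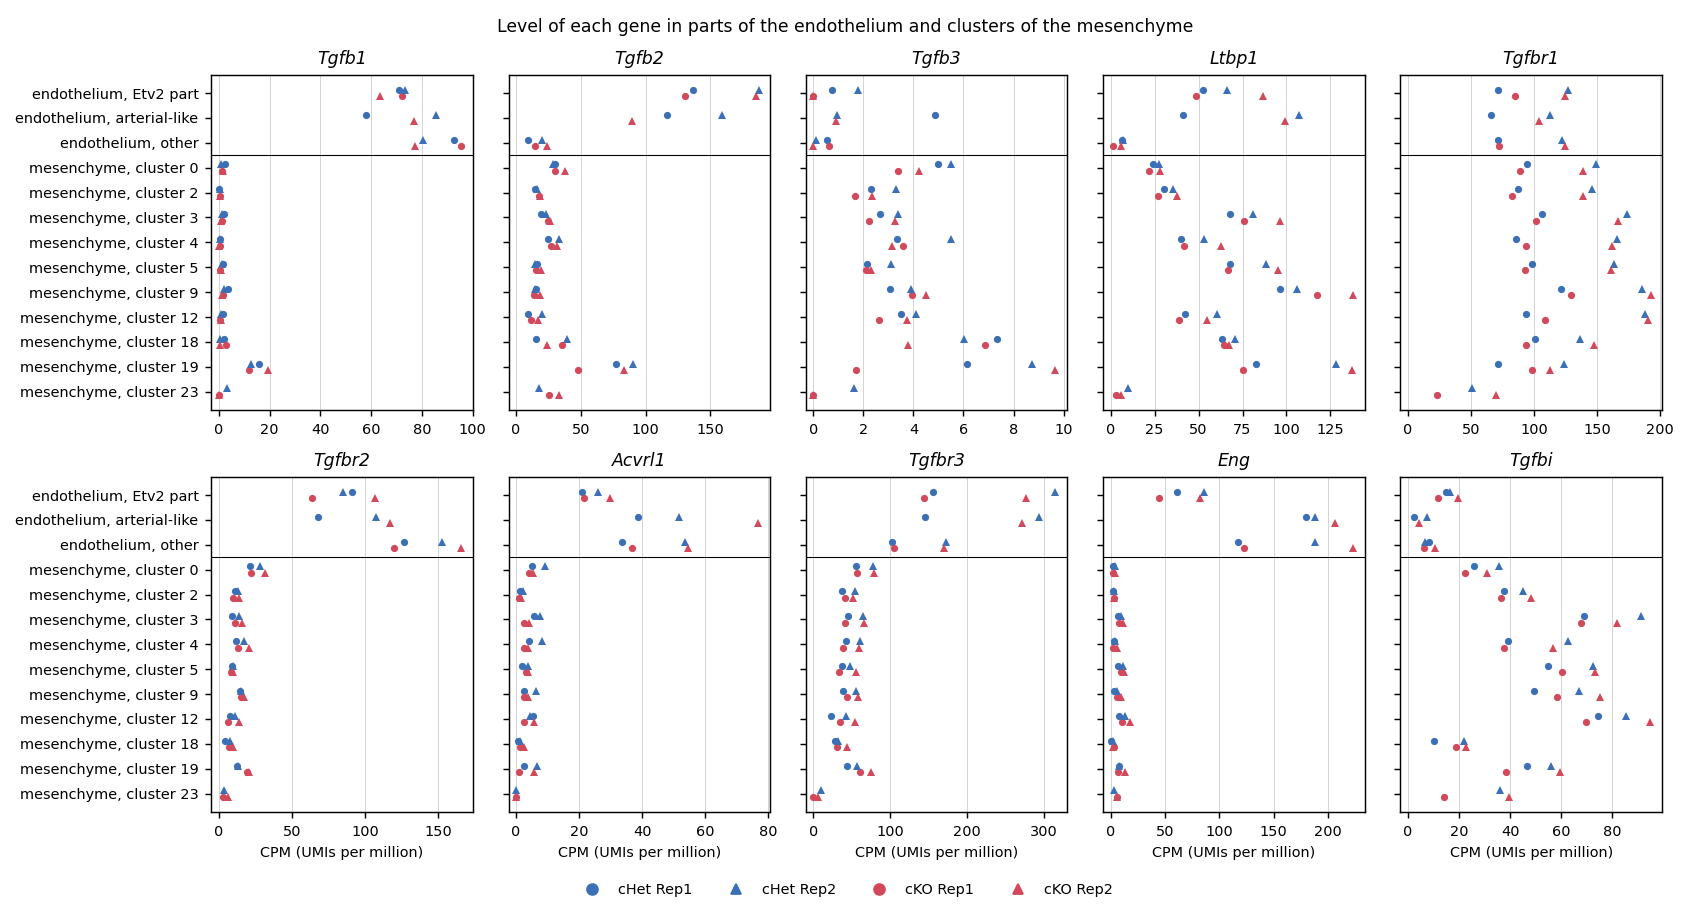
Level of each gene in 3 parts of the endothelium (above the line) and 10 clusters of mesenchyme (below it), in CPM, with 1 point per library that held at least 10 cells of the group. *Tgfb2* in the *Etv2* part, most of whose cells are in a subcluster also led by muscle genes, lies between 131 and 187 CPM, and in the other endothelial cells between 9.20 and 23.8 CPM.

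Likeness of patterns was measured by Pearson's r of the mean log2(CPM + 5) across the 11 types, as a description, since all points share the 4 libraries. *Acvrl1* and *Eng* were alike (r = 0.983), as were *Tgfbr2* and *Eng* (r = 0.966). *Tgfb2* and *Ltbp1* had r = 0.599, and *Ltbp1* and *Tgfbr2* ran opposite (r = -0.764). Outside the pathway lists, the 3 genes most like *Eng* were *Trpc6*, *Gm32688* and *Emcn* (r of 0.990 to 0.996), those most like *Acvrl1* were *Plvap*, *Trpc6* and *Ehd2* (0.984 to 0.991) and those most like *Tgfb1* were *Npr1*, *Gngt2* and *Egfl7* (0.984 to 0.995). For *Tgfbr2* they were *Fam43a*, *Ubtd1* and *Rhog* (0.973 to 0.978) and for *Tgfbr3* *Sav1*, *Spindoc* and *Birc6* (0.950 to 0.970). For *Tgfb2* they were *Tnc*, *Gucy1a1* and *Sphkap* (0.910 to 0.917), and for *Ltbp1* *Bex3*, *Zc3h14* and *Habp4* (0.905 to 0.914). For *Tgfbi* they were *Tns1*, *Slc50a1* and *Golim4* (0.925 to 0.961), for *Tgfb3* *Pdxp*, *Zbed4* and *Ormdl3* (0.910 to 0.947) and for *Tgfbr1* *Ip6k2*, *Dcaf8* and *Trp53bp1* (0.894 to 0.907). *Emcn* and *Tnc* are among the markers used to name the endothelium and the aSHF. Where 1 type lies far above the rest, as in *Eng*, *Acvrl1* and *Tgfb1*, r rests largely on that type.

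In the 9 types without a called member, edgeR called 0 members and 3 had an unadjusted p under 0.05 (*Tgfb1* in MLPs, *Tgfb2* in pSHF and *Ltbp1* in ectoderm, where 5.76%, 5.96% and 4.43% of all genes had one), and DESeq2 called 0 members in any type. The background in those types was 0.131% of genes called in endothelium, 0.255% in cardiac muscle, 0.0601% in aSHF, 0.499% in pSHF, 0.187% in MLPs, 0.455% in BrM, 0.0554% in ectoderm, 0.26% in endoderm and 0.0328% in neuronal cells. In the sums over all cells none of 20106 genes passed in edgeR (0%), 5.81% of them (1168) had an unadjusted p under 0.05, and the 63 genes that passed in DESeq2 held no member. There 2 members, *Tgfb1* and *Acvrl1* (-0.30 ± 0.12, adjusted p = 0.82), had an unadjusted p under 0.05. The median log2 fold change of the members tested was 0.02 in endothelium, -0.08 in cardiac muscle, -0.07 in aSHF, -0.01 in pSHF, -0.02 in MLPs and -0.06 in BrM. It was 0.01 in mesenchyme, -0.13 in ectoderm, 0.12 in endoderm and 0.12 in the otic vesicle, beside medians of all genes tested that lay between -0.01 and 0.00 in the 11 types. In neuronal cells all 7 tested members had an estimate below 0, with a median of -0.25, but only 2 had the same sign in both replicates, beside 49.9% of all genes there.

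A further 53 genes of the pathway were read with the same tests, in 5 groups: latency, storage and activation (14 genes), receptor modulators (10), SMADs and their partners (10), the *Eng* and *Acvrl1* ligands with their SMADs (7) and genes known to rise with TGF-beta (14), with *Skil* and *Tgif1* in 2 groups. Over the 11 types, the 88 tests of receptor modulators gave 1 call, higher in cKO, and the 128 tests of genes known to rise with TGF-beta gave 2 higher and 1 lower. The other 3 groups had no call, beside 0.393% of all tests of a gene in a type. The modulator was *Bambi*, a decoy receptor, at 133, 173, 275 and 391 CPM in cardiac muscle. Its log2 fold change was 0.48 ± 0.12 (adjusted p = 0.033), with 0.39 in Rep1 and 0.55 in Rep2. In the same cells *Ccn2*, a matrix protein gene, was at 25.7, 26.8, 32.1 and 62.8 CPM (0.74 ± 0.18, adjusted p = 0.021), with 0.09 in Rep1 and 1.00 in Rep2. Leaving out 1 library moved *Bambi* between -0.05, without cKO Rep2, and 0.94, without cHet Rep2, and *Ccn2* between 0.05, without cKO Rep2, and 1.04, without cKO Rep1, with no call. Both calls were also lost without the replicate block and in DESeq2 (adjusted p = 1.00 in each), with no filter on low counts (0.11 and 0.060), with cells of at least 4000 genes, with doublets kept, with pathway genes in the clustering and after thinning, at 0.42 to 0.50 for *Bambi* and 0.61 to 0.77 for *Ccn2*. Cardiac muscle held 42 cells of cKO Rep1. Of the 39 pathway genes tested in cardiac muscle 2 were called, beside 0.255% of all genes. The epithelial markers summed to 305, 181, 254 and 208 CPM there and the endothelial markers to 35.8, 18.4, 61.3 and 56.8 CPM. Both were lower in cKO in both replicates. The pSHF markers, at 165, 217, 184 and 194 CPM, were higher in cKO in both. Their part in the results was not tested.

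*Acta2*, the smooth muscle actin gene, was called in opposite directions in a pair of types. In pSHF it was at 30.1, 65.8, 54.6 and 106 CPM, higher in cKO in both replicates (1.00 ± 0.09, adjusted p = 1.5e-05), the only call among 43 pathway genes tested there, beside 0.499% of all genes. The 8 cardiac muscle markers moved with it there, at 391, 589, 411 and 734 CPM, and their part in the result was not tested. With doublets kept and cells grouped again, the pSHF value was 0.41 and not called (adjusted p = 0.25). Without the replicate block it was 1.01 (adjusted p = 1.00), and without 1 library it was 0.79 to 1.29, with no call. In mesenchyme *Acta2* was at 34.7, 22.0, 87.3 and 48.4 CPM, lower in cKO in both replicates (-0.66 in Rep1 and -0.83 in Rep2). The edgeR estimate was -0.75 ± 0.05 (adjusted p = 6.7e-06), the only call among 50 pathway genes tested there, beside 1.62% of all genes. Leaving out 1 library moved it between -1.25, without cKO Rep2, and -0.18, without cHet Rep2, with no call, and without the block it was -0.77 (adjusted p = 1.00). The cluster led by *Tagln*, *Myl9* and *Acta2* held 1.57%, 1.41%, 2.56% and 1.92% of mesenchymal cells, and its own *Acta2* level was 1372, 1027, 2244 and 1670 CPM. The cardiac muscle markers summed to 21.4, 20.3, 67.4 and 42.3 CPM in mesenchyme. The part of these values in the result was not tested.

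**Figure D4:**
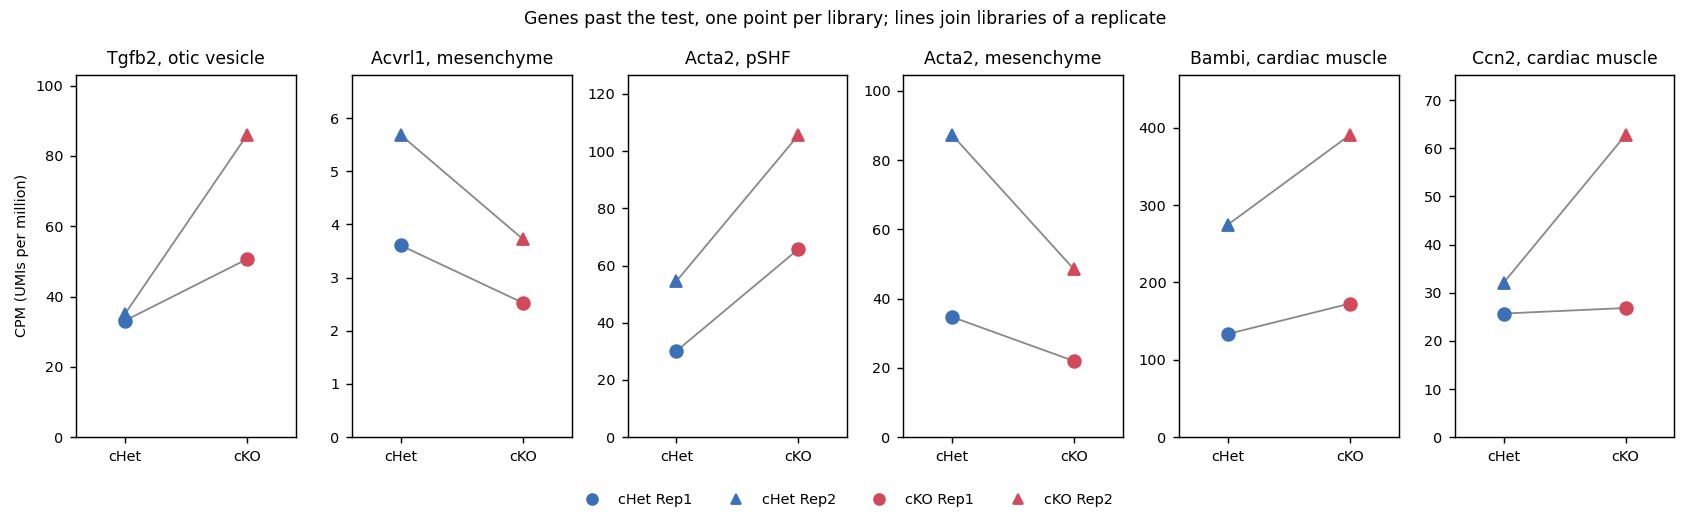
CPM of the members and pathway genes that passed the test between genotypes, with 1 point per library and a line joining the libraries of a replicate (circles Rep1, triangles Rep2). *Tgfb2* in the otic vesicle is higher in both cKO libraries (50.6 and 85.9 CPM) than in both cHet libraries (33.2 and 35.1 CPM), and in *Acvrl1* each line falls.

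Per type, at most 2 pathway genes were picked, with the largest difference at an unadjusted p under 0.05 and 1 sign in both replicates. Called genes took places in cardiac muscle, pSHF and mesenchyme, so further genes there may meet these limits. The rest of the picked genes did not pass. In the endothelium these were *Thbs1*, a gene whose protein activates latent TGF-beta (3.36, 0.128, 5.20 and 2.07 CPM, -1.91 ± 0.43, adjusted p = 0.069), and *Ltbp4* (-0.87 ± 0.38, adjusted p = 0.79). In the otic vesicle they were *Thbs1* (4.02, 7.70, 1.57 and 8.37 CPM, 1.66 ± 0.46, adjusted p = 0.26) and *Fst* (-1.49 ± 0.54, adjusted p = 0.65). In BrM they were *Itgb8* (6.54, 10.1, 7.03 and 11.1 CPM, 0.67 ± 0.15, adjusted p = 0.090), an integrin gene whose product activates latent TGF-beta, and *Bgn* (-0.66 ± 0.26, adjusted p = 0.51). In the aSHF they were *Fst* (-1.60 ± 0.40, adjusted p = 0.27) and *Tagln* (0.32 ± 0.08, adjusted p = 0.24), and in MLPs *Acta2* (-1.09 ± 0.27, adjusted p = 0.12) and *Nrros* (-0.94 ± 0.44, adjusted p = 0.83). In ectoderm they were *Smurf1* (-0.54) and *Tagln* (-0.64), and in neuronal cells *Acta2* (-2.02) and *Fst* (-0.66). In endoderm there was *Acta2* (-1.40), in pSHF *Furin* (0.60) and in mesenchyme *Bambi* (0.29, adjusted p = 0.089). *Acta2* rested on 31, 1, 15 and 9 UMIs in neuronal cells (-3.43 in Rep1 and -0.56 in Rep2). In endoderm it rested on 13, 1, 30 and 22 UMIs (-2.80 in Rep1 and -0.85 in Rep2). *Fst* in the otic vesicle rested on 23, 2, 14 and 18 UMIs (-3.19 in Rep1 and -0.32 in Rep2). Endothelial *Thbs1* had 30, 1, 57 and 23 UMIs (-3.55 in Rep1 and -1.24 in Rep2). Endothelial *Ltbp4* had 20, 3, 54 and 40 UMIs (-2.11 in Rep1 and -0.43 in Rep2). *Nrros* in MLPs had 12, 3, 24 and 15 UMIs (-1.55 in Rep1 and -0.52 in Rep2).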

How the data were processed

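The authors deposited raw UMI counts per gene and barcode for each library, made with Cell Ranger (8.0.1 per the submitters' processing notes, 7.0.1 in the file headers of Rep1 and 8.0.1 in those of Rep2) on mm10. Removal of free RNA, filtering and integration came after these files. Positions are from GENCODE M21 on GRCm38. Free RNA thus remains in all values.

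Barcodes with at least 3000 genes, at most 10% mitochondrial and at most 5% hemoglobin UMIs were kept. Doublets were scored by their share of simulated doublets among neighbours and removed down to the share expected for the kit (0.8% or 0.4% per 1000 barcodes). From 2000 variable genes, centred and scaled within replicate and without the pathway genes, 30 components were aligned between replicates and clustered by Leiden (resolution 0.8, leidenalg 0.10.2). A cluster took the name of the type with the most markers (at least 3, each in 10% of cells and 2-fold higher), with 1 or more among its top 20 genes. Clusters still unnamed were called mesenchyme where at least 3 mesenchyme markers passed against the named cells. These naming thresholds were chosen once clusters had been seen.

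UMIs were summed per library and type and tested with edgeR 4.0.16 (quasi-likelihood, TMM, filterByExpr, replicate as block) and Benjamini-Hochberg adjustment over all genes of a type. The SE of an edgeR estimate was the size of the log2 fold change divided by the square root of the F statistic. It rests largely on spread taken from other genes and does not measure the spread between the libraries of a genotype. DESeq2 1.42.0 was an alternative. The replicate number marks a shared kit, and libraries of a replicate deviated together (r of 0.65 to 0.85 over types). The 10 genes, the pathway and marker lists, and the rule for named genes were chosen with earlier results of these data known. The rule named the called pathway genes. It also named at most 2 per type, called or not, with the largest change at an unadjusted p under 0.05 and 1 sign in both replicates. For likeness, the 3 genes with the highest r among those with at least 20 CPM in a type were named. Nothing says that p-values cover more than the spread between these pools, which may be technical.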

Additional observations from a re-analysis of the deposited data

Results flagged for a closer look

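The genotype effect of *Tgfb2* (log2 of cKO over cHet) differed between the otic vesicle and every other cell type in the edgeR test of the type by genotype term. The effect in the otic vesicle minus that in the other type was 1.12 for endothelium, 1.00 for cardiac muscle, 0.97 for aSHF, 0.82 for pSHF, 1.07 for MLPs, 0.94 for BrM, 0.89 for mesenchyme, 0.96 for ectoderm and 1.19 for endoderm. The effect in neuronal cells minus that in the otic vesicle was -1.21. The adjusted p of the 10 comparisons, which share the otic vesicle libraries, ran from 6.15e-10 to 0.0143. No other setting was run for these terms. The call of *Tgfb2* within the otic vesicle was itself lost without the replicate block and in DESeq2.

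The genotype effect of *Acvrl1* in mesenchyme minus that in endothelium was -0.66 (adjusted p = 4.6e-04, edgeR). Against aSHF it was -0.57 and did not pass (adjusted p = 0.97, edgeR). No other setting was run for these terms. The cKO library was lower than its cHet partner in both replicates in mesenchyme and higher in both in endothelium.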

How the results depend on the processing

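With 2 pools per genotype, 572 calls were made over all types with the replicate block and 0 without it. Fits without 1 library also lack the block and assume that the lone library of a genotype varies like the others, and over all types they called 0 to 14 genes in place of 572, so a call lost there says nothing of that gene. The 2 calls among members became 0 without the replicate block, 0 in DESeq2, 0 when any 1 library was left out, 1 with cells of at least 4000 genes and 1 with doublets kept. *Tgfb2* in the otic vesicle was 0.96 without the block, 0.97 in DESeq2 and 0.76 to 1.149 without 1 library. In 7 of 9 settings that kept every library its call stood, at 0.94 to 1.36 (adjusted p from 4.9e-08 to 1.00 over the 9). These 9 include the fits without the block and in DESeq2. They also include resolution 1.2, which left the otic vesicle cells the same and so could not change this value. *Acvrl1* in mesenchyme was -0.55 without the block and in DESeq2, -0.52 with at least 4000 genes, -0.53 with doublets kept and -0.71 to -0.38 without 1 library, and its call stood in 5 of 9 (adjusted p from 8.5e-04 to 1.00). *Bambi* in cardiac muscle reversed to -0.049 without cKO replicate 2, a fit that sets cKO Rep1 against cHet libraries of both replicates. Within the replicates it was 0.39 in Rep1 and 0.55 in Rep2. Its call, like that of *Ccn2*, stood in 2 of 9, among them resolution 1.2, which left the cells of cardiac muscle the same. For *Acta2* the call stood in 7 of 9 in pSHF and 8 of 9 in mesenchyme.

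Over all types, the 572 calls became 1676 with no filter on low counts and 146 in DESeq2. In the sums over all cells, 0 calls became 58 with no filter, 63 in DESeq2, 3 with at least 4000 genes, 4 with doublets kept, 11 after thinning to 5000 UMIs and 0 to 1 without 1 library, and none was a member. Of the highest level of each member, under 5 other settings, only *Tgfb1* in the endothelium moved beyond its spread, from 83.9 to 74.7 CPM with doublets kept. Genes with few UMIs, such as *Acvrl1* outside 5 types, were not tested at this depth.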

Other observations

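The 616 unnamed cells lay in a cluster led by *Barx1* and *Dlx2* (318 cells) and a cluster led by *Hes5* and *Rfx4* (298 cells). In the first, *Tgfb2* was at 34.1, 10.1, 9.96 and 7.60 CPM in the libraries in the order used above, and *Tgfbi* at 28.7, 8.43, 4.98 and 7.60 CPM, both highest in cHet Rep1. In the second, *Tgfb2* was at 8.10, 7.62, 10.99 and 60.9 CPM, the last from 40 UMIs.

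In barcodes under 1000 UMIs, *Tgfb2* was at 31.8, 12.0, 18.96 and 35.5 CPM, *Ltbp1* at 40.2, 21.5, 19.9 and 29.6 CPM, and *Eng* at 9.46, 2.39, 10.8 and 10.4 CPM. *Tgfbr1* stood at 73.0, 52.6, 52.4 and 46.6 CPM in these barcodes, in which the Rep2 libraries were not above those of Rep1, unlike in the cells kept.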
